A study of Rattus norvegicus with 12 samples.

Results

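The genes described here are 45 genes of mitosis and the mitotic spindle, a module that runs from the kinase Cdk1 and its cyclins to the motors, kinetochore proteins and condensins that move and pack chromosomes. They were chosen by gene name, and the brightest probe of each name stood for the gene. All 45 were on the array, all 45 passed the filter on dim probes, and they are 45 of the 22718 gene names tested. Every member was well above background on all 12 arrays, so no value is a bound. All 45 names are also current symbols in the RefSeq gene table of assembly GRCr8.

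RNA came from the calvaria of rats, the flat roof of the skull together with its marrow, taken 72 h after surgery from animals 10 weeks old. In the laser group (4 arrays) a defect of 8 × 3 mm was ablated with the infrared light of an Er:YAG laser, which removes mineralised tissue, at 20 Hz and an output of 127 mJ per pulse. In the bur group (4 arrays) a defect of the same area was drilled with a rotating bur. The control group (4 arrays) was bone that was not ablated; the treatment protocol says that its periosteum was taken off, while the sample labels call it non-treated. Strain and sex are not given in the sources used here, and the labels do not state that each array had its own animal; a p-value here therefore reflects the scatter among the arrays, part or all of which could be technical. The title of the series names sclerostin, a Wnt inhibitor of osteocytes, as its subject; for the mitotic genes the design asks whether either way of ablation changed their level and whether laser and bur differed.

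Mitosis begins when Cdk1 bound to cyclin A or B is switched on. Polo-like and Aurora kinases then mature the centrosomes and correct faulty attachments, kinesins and microtubule-associated proteins build the spindle, and the spindle checkpoint holds the anaphase-promoting complex (APC/C) in check until every kinetochore is attached. The APC/C then has securin and the cyclins degraded, separase opens cohesin, and the midzone guides the cell through cytokinesis. Most of these genes are transcribed in G2 and mitosis under FoxM1, B-Myb and the DREAM complex, so their messages mark cells that cycle; in calvaria these include marrow precursors, above all erythroid and B cell precursors, as well as osteoprogenitors and cells of the wound.

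Values are log2 signal relative to the 75th percentile of the same array, so that 0 is the level below which 75% of its spots lie and a difference of -1 is a halving. Differences were tested with limma over all genes, and a gene is called where its Benjamini-Hochberg adjusted p is under 0.05. The levels of different probes were not compared with each other. All control arrays lay on 1 slide with 1 scan and all 8 treated arrays on another, so that treatment cannot be told apart from slide or scan where control is involved. Bur and laser shared a slide but not a column of it, so that column and treatment cannot be told apart between them. Because this is RNA of whole bone, fewer cycling cells and less message per cycling cell cannot be told apart. Bone was represented, with each of the 10 osteoblast markers tested well above background on at least 1 array of each group.

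Mitotic genes were lower in ablated bone than in control bone, by either method. In laser bone 13 members fell and 0 rose, and in bur bone 14 fell and 0 rose. Of all genes tested, 13% were called lower and 9.26% higher in laser bone, and 16.2% lower and 9.99% higher in bur bone. Securin (Pttg1) fell furthest, 3.13-fold in laser and 3.37-fold in bur bone. The kinases Nek2 (2.94-fold and 2.74-fold) and Plk1 (2.67-fold and 2.79-fold), the separase Espl1 (2.41-fold and 2.39-fold) and the proliferation marker Mki67 (2.31-fold and 2.18-fold) also fell in both. Some members had small estimated differences: Anln, Melk, Ccnb1, Aurkb and Smc4, picked out here after their values were seen, had differences between -0.30 and 0.21. That they were not called does not show that each was level.

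Over all 45 members the median difference was -0.68 on the log2 scale in laser minus control, a 1.60-fold lower signal, beside a median of 0.02 over all genes tested. In bur minus control the median was -0.60, or 1.52-fold lower, beside -9.7e-05 over all genes. The difference lay below 0 for 43 of the 45 members in the first and for 42 in the second, against 48.7% and 50% of all genes. The called falls ran from -0.71 to -1.65 in laser bone (adjusted p from 0.0173 to 0.0457), and 10 of them reached a halving. In bur bone they ran from -0.67 to -1.75 (adjusted p from 0.0101 to 0.0471), and 8 reached a halving. Both comparisons use the same control arrays: 12 members were called in both, Nuf2 in laser bone only, Nusap1 and Top2a in bur bone only, and 30 in neither. None of these 3 was called between laser and bur. Of the 32 members not called in laser bone, 12 had an adjusted p under 0.1, and 29 members in all had an unadjusted p under 0.05, beside 38.9% of all genes; in bur bone 24 members had one, beside 41% of all genes.

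These counts rest on few arrays. Leaving out control array 1, laser array 2 or laser array 3 left 0 members called in laser against control, leaving out control array 4 left 2 and laser array 4 left 4, while leaving out control array 3 raised the count to 29. In bur against control the count fell to 5 without control array 1, to 6 without control array 4, bur array 1 or bur array 3, and to 7 and 9 without control array 2 and bur array 4, and rose to 25 without control array 3. Of all genes, 8.41% were called lower in bur bone without control array 1 and 20.3% without control array 3. In laser bone the share of all genes called lower moved as well, beside 13% with all 12 arrays. It was 3.5% without control array 1, 3.53% without laser array 2 and 4.39% without laser array 3. Without control array 4 it was 5.03%, without laser array 4 7.03% and without control array 3 18.2%. The median difference of the members stayed below 0 whichever array was left out, between -0.83 and -0.42 for laser and between -0.74 and -0.35 for bur. Of the members called, 0 of 13 kept their call in all 12 such fits for laser, and 5 of 14 kept it for bur, namely Plk1, Nek2, Cenpa, Spc25 and Foxm1.

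**Figure D1:**
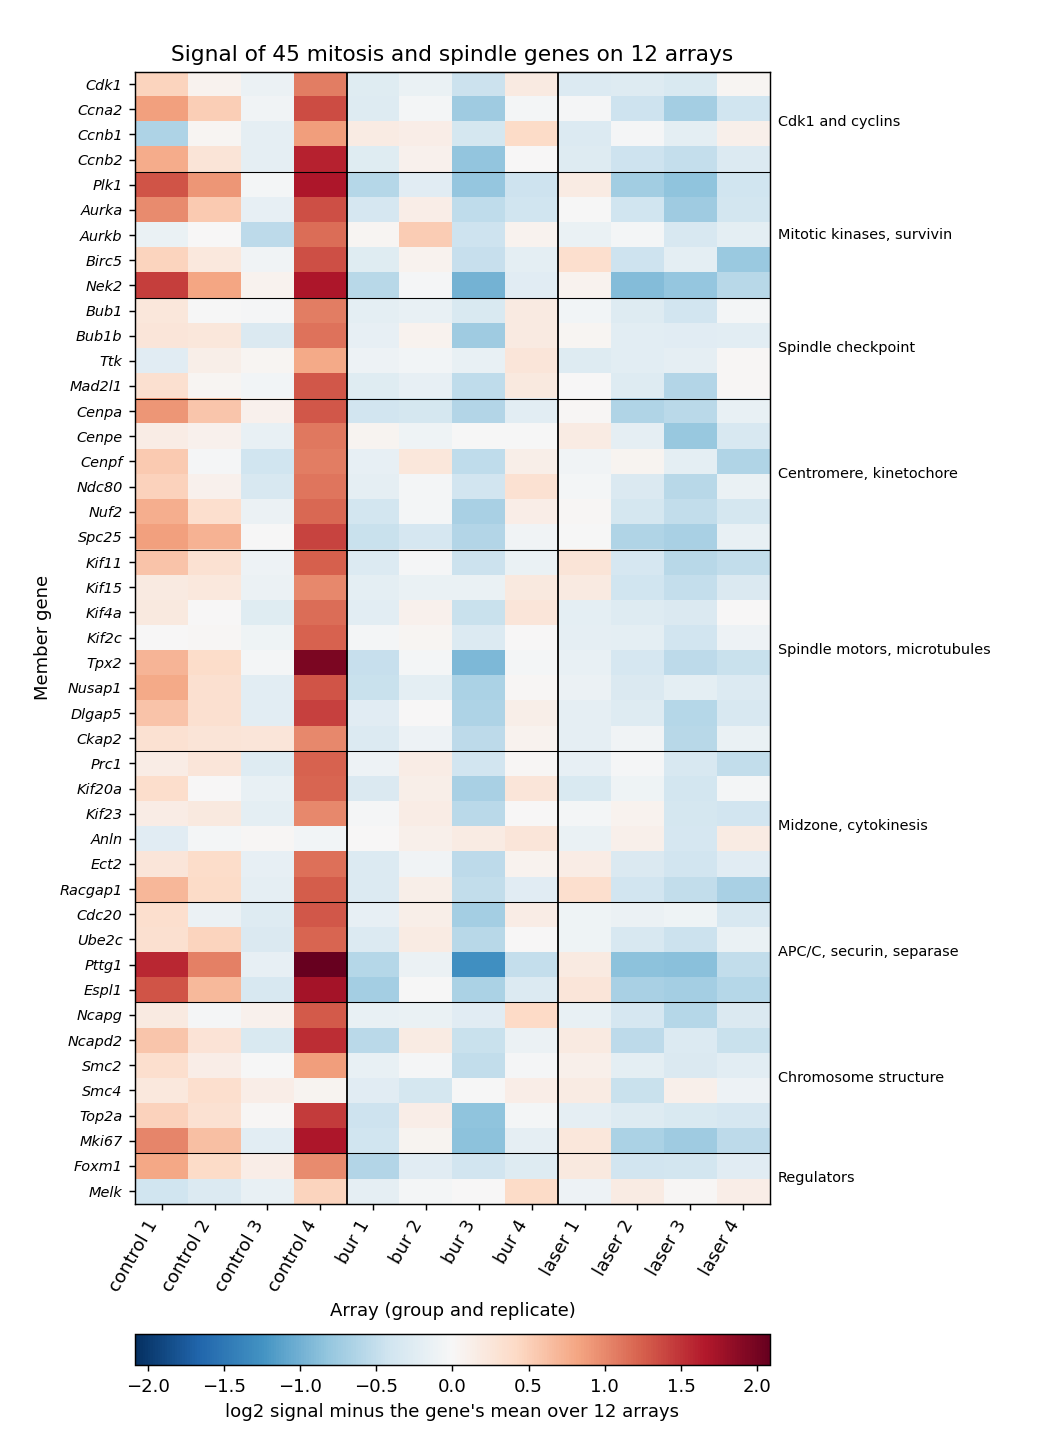
Each cell shows a member's log2 signal on an array minus the mean of that member over the 12 arrays (red higher, blue lower); rows are the 45 members in their role groups, columns the arrays. The column of control array 4 is the reddest, being the highest of the 12 arrays for 43 members, while control array 3 exceeds all 8 treated arrays for 2 members.

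**Figure D2:**
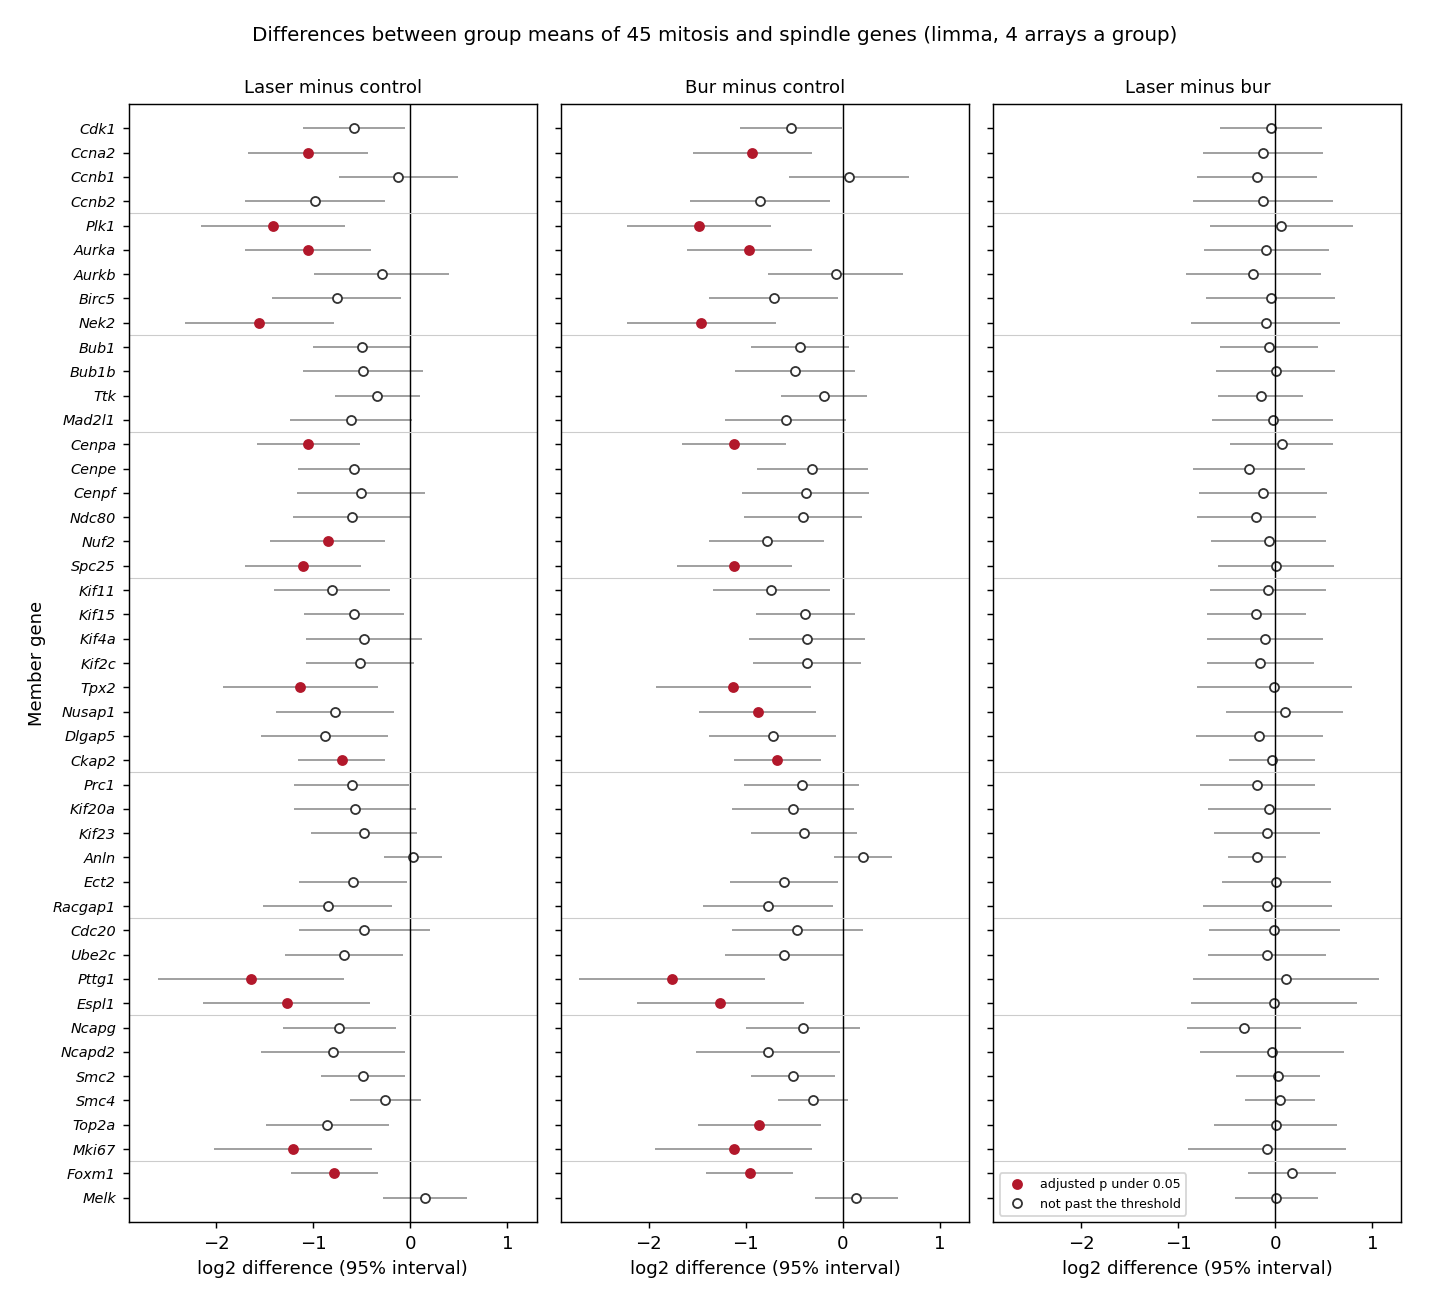
Points are differences of group means on the log2 scale for the 45 members, with 95% intervals from limma as bars and 4 arrays a group; filled points have an adjusted p under 0.05. In the panels of laser and bur against control 13 and 14 points are filled and lie below 0, and in the panel of laser against bur all 45 bars cross 0.

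Pttg1, Nek2 and Plk1 had the largest falls in laser bone among members that have an entry in the RefSeq promoter table, and the 250 bases before their start sites are given because promoters of mitotic genes are known for a CHR element, spelled TTTGAA and less often TTCGAA, which is bound by DREAM and by B-Myb with FoxM1, and for CCAAT boxes bound by NF-Y. Capitals mark each match, on either strand, to these elements or to TTTNNCGC, an E2F-type motif. The sequences are those of GRCr8, read 5′ to 3′ on the strand of the gene, at chr10:28406327-28406576 (minus strand) for Pttg1, chr13:105936559-105936808 (plus strand) for Nek2 and chr1:186147408-186147657 (plus strand) for Plk1.
Pttg1: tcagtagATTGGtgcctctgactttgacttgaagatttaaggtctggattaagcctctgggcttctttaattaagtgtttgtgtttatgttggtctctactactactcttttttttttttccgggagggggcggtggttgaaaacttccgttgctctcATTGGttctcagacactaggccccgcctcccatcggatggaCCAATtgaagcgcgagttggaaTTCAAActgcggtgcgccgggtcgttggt
Nek2: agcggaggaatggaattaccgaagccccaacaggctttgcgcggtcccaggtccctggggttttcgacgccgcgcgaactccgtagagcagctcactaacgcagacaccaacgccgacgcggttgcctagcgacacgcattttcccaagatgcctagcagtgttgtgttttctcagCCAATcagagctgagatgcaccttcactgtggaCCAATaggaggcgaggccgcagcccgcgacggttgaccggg
Plk1: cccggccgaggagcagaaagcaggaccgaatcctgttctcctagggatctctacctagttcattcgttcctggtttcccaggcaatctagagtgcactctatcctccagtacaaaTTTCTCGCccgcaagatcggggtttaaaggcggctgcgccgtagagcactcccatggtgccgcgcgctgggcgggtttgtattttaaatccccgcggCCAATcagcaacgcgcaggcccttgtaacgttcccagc

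In Pttg1 the TTTGAA match lies 24 to 29 bases before the start site on the reverse strand, with a CCAAT box 47 to 51 bases before it and 2 more in reverse further out. Nek2 has 2 CCAAT boxes, 37 to 41 and 70 to 74 bases before the start, and neither CHR spelling in its window. Plk1 has a CCAAT box 34 to 38 bases before the start and an E2F-type match 128 to 135 bases before it; its TTTGAA match falls after the start site and is not printed. The promoter table held 39 of the 45 members. Over its windows of 300 bases (250 before to 50 after the start), TTTGAA was found in 29 of these 39 (74.4%), beside 18.1% of all 27457 promoters of that length, and CCAAT in 29 (74.4%), beside 37.7%. A CHR spelling together with CCAAT was found in 23 (59.0%), beside 7.83% of all. TTTNNCGC was found in 5 members (12.8%), beside 5.19%. The members called lower in laser bone held TTTGAA in 8 of 10 promoters and the members not called in 21 of 29. A match is only a description of these letters. The genes of DNA replication differed in TTTGAA (4.35% of 23 promoters) and TTTNNCGC (47.8%), while CCAAT was found in 69.6% of them. Other mitosis genes, not members, held TTTGAA in 46.2%, CCAAT in 58.5% and TTTNNCGC in 16.9% of 65 promoters.

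Among Cdk1 and its cyclins 1 of 4 fell. Ccna2, the cyclin that works in S phase and up to early mitosis, read 1.47, 1.14, 0.56 and 1.98 on the control arrays, 0.37, 0.58, -0.11 and 0.59 on the bur arrays and 0.60, 0.20, -0.08 and 0.21 on the laser arrays. Control arrays 1, 2 and 4 lay above all treated arrays, and control array 3 lay within them. It fell by 1.05 (SE 0.28, adjusted p = 0.0262) in laser bone and by 0.93 (SE 0.28, adjusted p = 0.0329) in bur bone. Ccnb2, a B-type cyclin that drives entry into mitosis with Cdk1, read 1.43, 0.92, 0.47 and 2.25 in control, 0.40, 0.75, -0.17 and 0.67 in bur and 0.38, 0.22, 0.16 and 0.38 in laser bone. Every laser value of Ccnb2 was below every control value, yet its differences of -0.98 and -0.86 missed the threshold (adjusted p = 0.0519 and 0.0741). Its control SD of 0.76 was the widest of the 4. Cdk1 itself differed by -0.58 in laser (adjusted p = 0.0986) and by -0.53 in bur bone (adjusted p = 0.116). Ccnb1, the main partner of Cdk1 in mitosis, had differences of -0.12 and 0.06 and was not called (adjusted p = 0.772 and 0.886). Its control values ran from -1.89 to -0.37 around bur values of -1.62 to -0.86 and laser values of -1.54 to -1.14. With so wide a control spread this does not show that Ccnb1 was level.

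The mitotic kinases with survivin gave the most calls for their number, 3 of 5 in each comparison. Plk1, the polo-like kinase of centrosome maturation and mitotic entry, read 2.17, 1.77, 0.81 and 2.54 on the control arrays, 0.27, 0.62, 0.06 and 0.43 on the bur arrays and 1.03, 0.13, 0.03 and 0.44 on the laser arrays. All bur values were below all control values, while laser array 1 exceeded control array 3. The difference was -1.42 (SE 0.34, adjusted p = 0.0195) in laser and -1.48 (SE 0.34, adjusted p = 0.0124) in bur bone. Its probe lies at chr1:181012641-181012700 (plus strand) of build rn4 per the file headers; annotation of that build was not used here.

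Nek2, a kinase that parts the centrosomes, read 0.81, 0.19, -0.56 and 1.04 in control, -1.21, -0.65, -1.61 and -0.87 in bur and -0.56, -1.53, -1.43 and -1.21 in laser bone. The highest laser value and the lowest control value met at -0.56, and the bur values all lay below the controls. Nek2 fell by 1.55 (SE 0.35, adjusted p = 0.0173) in laser and by 1.46 (SE 0.35, adjusted p = 0.015) in bur bone. Aurka, the Aurora kinase of centrosomes and spindle poles, fell by 1.05 (adjusted p = 0.0298) and by 0.96 (adjusted p = 0.034). The members of the chromosomal passenger complex did not pass. Birc5, which encodes survivin, differed by -0.76 and -0.71 (adjusted p = 0.0892 and 0.1), and Aurkb, the kinase of that complex, by -0.30 and -0.07 (adjusted p = 0.512 and 0.889).

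Of the 4 spindle checkpoint genes 0 were called in either comparison by limma, and 0 had an unadjusted p under 0.05. Mad2l1, the Mad2 protein that inhibits the APC/C, had the largest difference; it read -1.75, -2.06, -2.16 and -0.81 in control, -2.35, -2.27, -2.62 and -1.89 in bur and -2.08, -2.36, -2.70 and -2.07 in laser bone. Only control arrays 1 and 4 lay above all treated arrays. The differences were -0.61 and -0.59, with 95% intervals of -1.24 to 0.01 and -1.21 to 0.04. Bub1, a checkpoint kinase at the kinetochore, read 0.31, 0.05, 0.03 and 1.12 in control, -0.14, -0.10, -0.26 and 0.24 in bur and 0.00, -0.20, -0.33 and 0.03 in laser bone. Laser values of Bub1 ended just below the lowest control, and the differences of -0.50 and -0.44 did not pass (adjusted p = 0.129 and 0.169). The checkpoint kinases Bub1b (-0.49 in both) and Ttk, known as Mps1 (-0.34 and -0.19), had intervals that held 0. With the replicate number as a block Mad2l1 was called by limma in laser against control (-0.61, 95% interval -1.02 to -0.20, adjusted p = 0.0383). It was also called in bur against control (-0.59, 95% interval -0.995 to -0.180, adjusted p = 0.0391). Same-numbered bur and control arrays, however, did not deviate together throughout. The other 3 checkpoint genes were called in neither.

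At the centromere and kinetochore 3 of 6 members fell in laser bone and 2 of 6 in bur bone. Spc25, a subunit of the Ndc80 complex that grips microtubules, read 1.12, 1.0, 0.26 and 1.67 on the control arrays, -0.20, -0.08, -0.34 and 0.20 on the bur arrays and 0.26, -0.36, -0.40 and 0.12 on the laser arrays. Bur values lay below every control, and laser array 1 was level with control array 3. Spc25 fell by 1.11 (SE 0.27, adjusted p = 0.021) and by 1.12 (SE 0.27, adjusted p = 0.0155). Cenpa, the histone H3 variant that marks the centromere, read -2.45, -2.79, -3.29 and -2.08 in control, -3.77, -3.73, -3.98 and -3.60 in bur and -3.36, -4.00, -3.93 and -3.53 in laser bone. Every control value of Cenpa was above every treated value. It fell by 1.05 (SE 0.24, adjusted p = 0.0181) in laser and by 1.12 (SE 0.24, adjusted p = 0.0104) in bur bone.

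Nuf2, the partner of Ndc80 in the same complex, fell by 0.85 in laser bone (adjusted p = 0.0441) and differed by -0.78 in bur bone (adjusted p = 0.0519). Ndc80 differed by -0.60 and -0.41 on its brightest probe (adjusted p = 0.132 and 0.288). The kinesin Cenpe, which moves chromosomes to the spindle equator, differed by -0.58 and -0.31, and Cenpf, a large kinetochore protein, by -0.51 and -0.38. Neither passed.

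Among spindle motors and microtubule proteins all 8 differences were below 0 in both comparisons; 2 passed in laser bone and 3 in bur bone. Tpx2, which activates Aurora A and starts microtubules near chromosomes, read -1.55, -1.88, -2.30 and -0.29 in control, -2.74, -2.30, -3.19 and -2.30 in bur and -2.42, -2.61, -2.80 and -2.73 in laser bone. Laser values lay below every control, bur arrays 2 and 4 were level with control array 3, and control array 4 stood above every other array. It fell by 1.13 in each comparison (SE 0.37, adjusted p = 0.0457 and 0.0419). Dlgap5, or HURP, which steadies the fibres that reach kinetochores, read 0.21, -0.04, -0.60 and 1.05 in control, -0.62, -0.36, -1.02 and -0.25 in bur and -0.57, -0.64, -0.98 and -0.72 in laser bone. Control array 3 lay among the treated arrays, and the differences of -0.88 and -0.72 missed the threshold (adjusted p = 0.0538 and 0.0934).

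Ckap2, a spindle-associated protein, had a narrow control spread apart from array 4, with values of -1.50, -1.54, -1.56 and -0.81, and its bur values of -2.35 to -1.73 and laser values of -2.39 to -1.89 lay below all of them. It fell by 0.71 (adjusted p = 0.0328) and by 0.67 (adjusted p = 0.0329). Nusap1, which bundles spindle microtubules, fell by 0.88 in bur bone (adjusted p = 0.0378) and differed by -0.78 in laser bone (adjusted p = 0.0621). The kinesins did not pass in either comparison. Kif11, the motor that pushes spindle poles apart, came nearest with -0.81 and -0.73 (adjusted p = 0.0539 and 0.0663), and Kif15, Kif4a and Kif2c differed by -0.58, -0.47 and -0.52 in laser bone.

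Of the 6 midzone and cytokinesis genes 0 were called by limma; 3 had an unadjusted p under 0.05 in laser and 2 in bur bone. Racgap1, a subunit of centralspindlin, read 0.18, -0.10, -0.70 and 0.76 in control, -0.79, -0.39, -1.01 and -0.74 in bur and -0.15, -0.90, -1.02 and -1.19 in laser bone. Control array 3 lay among the treated values, and the differences of -0.85 and -0.77 did not pass (adjusted p = 0.063 and 0.08). Prc1, the protein that bundles midzone microtubules, read -0.38, -0.29, -0.80 and 0.69 in control, -0.64, -0.39, -0.94 and -0.51 in bur and -0.72, -0.56, -0.86 and -1.06 in laser bone. Control array 4 held the only value above 0, and the differences of -0.61 and -0.42 did not pass (adjusted p = 0.121 and 0.259). The kinesins Kif20a and Kif23 and the exchange factor Ect2, which activates RhoA for the furrow, had differences from -0.61 to -0.40.

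Anln, the actin and septin scaffold of the cleavage furrow, was not called in either comparison with control. It read 0.34, 0.53, 0.59 and 0.53 on the control arrays, 0.58, 0.68, 0.74 and 0.83 on the bur arrays and 0.44, 0.69, 0.23 and 0.74 on the laser arrays, so the groups overlapped. Its differences were 0.03 (95% interval -0.27 to 0.32) and 0.21 (-0.09 to 0.51), and a fall of 0.67 or more, the smallest called among the members, lies outside both. Smaller falls, and rises of up to 0.32 and 0.51, lie within them. The control SD of Anln, 0.11, was the smallest of the 45, and control array 4 was not raised.

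Around the APC/C 2 of 4 members fell in each comparison, both on the side of sister chromatid separation. Pttg1, or securin, which inhibits separase until anaphase, read 2.93, 2.41, 1.20 and 3.44 on the control arrays, 0.76, 1.24, 0.08 and 0.87 on the bur arrays and 1.55, 0.51, 0.48 and 0.84 on the laser arrays. Control array 3 was passed by bur array 2 and laser array 1, and the other controls lay well above. The difference was -1.65 (SE 0.44, adjusted p = 0.0258) in laser and -1.75 (SE 0.44, adjusted p = 0.0168) in bur bone. Espl1, the separase that opens cohesin, read 0.38, -0.25, -1.25 and 0.80 in control, -1.63, -0.93, -1.58 and -1.21 in bur and -0.67, -1.60, -1.62 and -1.51 in laser bone. It fell by 1.27 (SE 0.39, adjusted p = 0.0399) and by 1.26 (SE 0.39, adjusted p = 0.0365), with control array 3 again among the treated values. The APC/C activator Cdc20 differed by -0.47 in each comparison (adjusted p = 0.275 and 0.274). Ube2c, the ubiquitin-conjugating enzyme that works with the APC/C, differed by -0.68 and -0.60 (adjusted p = 0.094 and 0.126).

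Among genes of chromosome structure 1 of 6 fell in laser bone and 2 of 6 in bur bone. Mki67, the Ki-67 protein that coats mitotic chromosomes and serves as the common marker of proliferation, read 2.78, 2.39, 1.54 and 3.45 in control, 1.34, 1.82, 0.91 and 1.58 in bur and 1.99, 1.1, 1.01 and 1.22 in laser bone. Control arrays 1, 2 and 4 exceeded every treated array and control array 3 did not. Mki67 fell by 1.21 (SE 0.37, adjusted p = 0.0391) and by 1.12 (SE 0.37, adjusted p = 0.044). Top2a, the topoisomerase that untangles sister chromatids, read -0.61, -0.78, -1.08 and 0.35 in control, -1.52, -0.96, -1.93 and -1.14 in bur and -1.29, -1.36, -1.42 and -1.46 in laser bone. Although the laser values were tight (SD 0.07) and below every control, its difference of -0.85 had an adjusted p of 0.0534, while the fall of 0.86 in bur bone passed (adjusted p = 0.0471).

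The condensin subunits did not pass. Ncapg differed by -0.73 in laser and -0.41 in bur bone, Ncapd2 by -0.79 and -0.77, and Smc2 by -0.49 and -0.51, with adjusted p from 0.0679 to 0.267. The other probe of Ncapg differed by -0.42 and -0.65 and was not called. For Smc4 the brightest probe differed by -0.26 and -0.30, without a raised control array 4 (control values 7.21, 7.34, 7.13 and 7.05), whereas its other probe differed by -0.61 and -0.33; neither probe was called.

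Of the regulators 1 of 2 fell. Foxm1, the transcription factor of the G2 and mitotic program, read -0.27, -0.68, -0.94 and -0.09 in control, -1.69, -1.32, -1.47 and -1.34 in bur and -0.87, -1.47, -1.46 and -1.31 in laser bone. Bur values lay below every control, and laser array 1 slightly above control array 3. It fell by 0.78 (SE 0.21, adjusted p = 0.0251) and by 0.96 (SE 0.21, adjusted p = 0.0101). Melk, a kinase often co-expressed with the mitotic genes, read -2.43, -2.29, -2.17 and -1.55 in control, -2.20, -2.06, -2.01 and -1.62 in bur and -2.12, -1.85, -2.0 and -1.88 in laser bone. Control arrays 1 and 2 were the lowest of the 12 arrays and control array 4 the highest, and the differences were 0.15 and 0.14 (adjusted p = 0.595 and 0.618).

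No member passed the test between laser and bur bone. By limma 0 of the 45 members and 0% of all genes tested were called, 574 genes (2.53%) but 0 members had an unadjusted p under 0.05, and the lowest unadjusted p of a member was 0.208. The differences of laser minus bur ran from -0.32 for Ncapg to 0.17 for Foxm1, with 33 members below 0 and 12 above, and their median was -0.07. On the other kept probe of Ncapg the order was reversed, with -0.42 in laser and -0.65 in bur minus control. All 45 intervals held 0. They reached from -0.92 to 1.07 at their widest, and the median half-width was 0.61, so that differences of that size between the methods could not be seen in a typical member. The fit with the replicate number as a block also gave 0 members.

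The members spread much more among the control arrays than among the treated ones. The median SD of a member was 0.61 over the control arrays, 0.30 over the bur arrays and 0.23 over the laser arrays, beside 0.34, 0.25 and 0.26 over all genes tested. The control SD was the largest of the 3 groups for 43 of the 45 members. Control array 4 was the highest of all 12 arrays for 43 members. Control array 3 was the lowest control for 39 members and exceeded all 8 treated arrays for 2, Cenpa and Ckap2. Control arrays 1 and 2 exceeded all treated arrays for 34 and 28 members. Accordingly the values of 8 members in laser bone and of 7 in bur bone did not overlap the controls, beside 10.1% and 15.7% of all genes that were lower without overlap.

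The mean of the 45 members, relative to each gene's mean over the 12 arrays, was 0.48, 0.28, -0.13 and 1.21 on the control arrays. It was -0.27, -0.01, -0.52 and 0.02 on the bur arrays and -0.01, -0.32, -0.45 and -0.28 on the laser arrays. The bur and laser values interleaved, and control array 3 lay among them. Within the treated groups bur array 3 was the lowest bur array for 37 members and laser array 3 the lowest laser array for 29, while laser array 1 was the highest laser array for 30.

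Some marker genes of each marrow lineage were lower too, beside 13% and 16.2% of all genes called lower in laser and bur bone. Of the 16 erythroid markers 15 were lower in laser and 14 in bur bone, among them Gata1, the erythroid transcription factor, by 2.72 in laser bone (adjusted p = 0.0251). Of the neutrophil markers 7 and 6 of 13 were lower, of the B lineage markers 3 and 3 of 12, of the mast cell markers 8 and 7 of 9, and of the T and NK cell markers 6 and 5 of 12, with 1 T and NK marker higher in each. The erythroid markers, averaged in the same way as the members, read 1.8, 1.4, 0.21 and 2.40 on the control arrays, -0.68, 0.24, -1.94 and -0.45 on the bur arrays and 0.33, -1.33, -0.86 and -1.11 on the laser arrays. Control arrays 4, 1, 2 and 3 stood in the same falling order for the erythroid markers and the members, and bur array 3 was the lowest bur array in both. The treated groups did not follow throughout: the highest bur array was array 2 for the erythroid markers and array 4 for the members, and the lowest laser array was array 2 for the erythroid markers and array 3 for the members. Neutrophil markers had the same order of controls (1.22, 0.96, -0.15 and 1.94). The B lineage markers did not, reading 0.84, 0.04, 0.33 and 2.02 on the control arrays. Bur array 4 (0.39) and laser array 4 (0.26) lay above control array 2 for the B lineage.

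On the linear scale the summed signal of the 16 erythroid markers, in multiples of each array's 75th percentile, was 436 to 779 in control, 218 to 373 in bur and 243 to 455 in laser bone. That of the neutrophil markers was 203 to 566, 123 to 214 and 55.6 to 269, and that of the B lineage markers 3.76 to 11.2, 2.46 to 4.35 and 2.23 to 4.12. None of these markers was undetected in every array of any group. Of the markers of other cells, 4 and 6 of 13 for macrophages, 5 and 1 of 10 for osteoblasts, 5 and 1 of 6 for osteocytes and 2 and 3 of 10 for fibroblast matrix were higher in laser and bur bone, and 0 of these lists' genes were lower. The single osteoblast marker called in bur bone is about the share of all genes called higher there. Of 8 endothelial markers 1 and 2 were lower and 0 higher, and of 7 skeletal muscle markers 0 were called by limma and 0 had an unadjusted p under 0.05.

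With a marrow score (the erythroid, neutrophil and B lineage lists averaged) as a covariate in the fit, 0 of 45 members were called in either comparison (1 member, Aurkb, had an unadjusted p under 0.05 in each, with a difference of 0.71 in laser and 0.92 in bur bone). The members' median difference was then 0.16 in laser and 0.26 in bur minus control. Of all genes tested 0 were called lower and 2 higher in laser bone, and 0 and 0 in bur bone. That score was 1.34, 0.86, 0.13 and 2.14 on the control arrays and -1.27 to 0.14 on the treated arrays, so that the groups overlapped only at control array 3. The part of marrow content in the members' fall was not tested beyond these values.

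**Figure D3:**
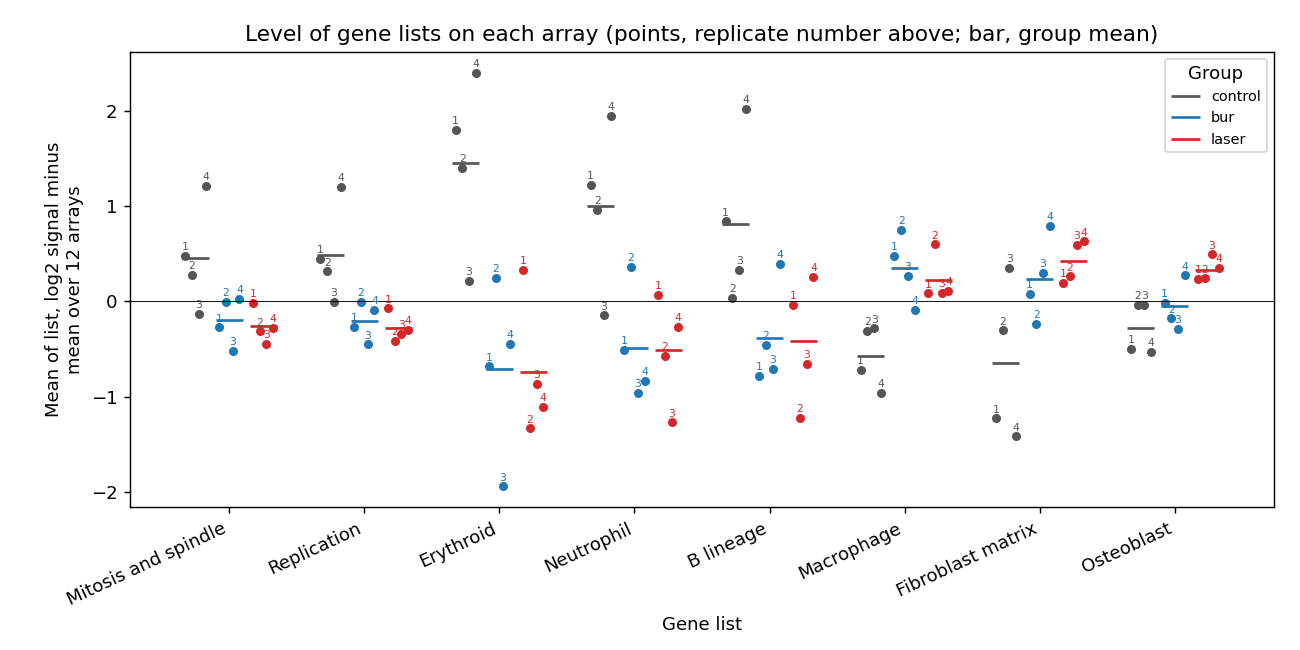
Points are the mean of a gene list on an array, as log2 signal minus each gene's mean over the 12 arrays, with the replicate number above; bars are group means (4 arrays each). Control array 4 is highest and control array 3 lowest among controls for the mitotic members and the replication, erythroid and neutrophil lists, and the macrophage, fibroblast and osteoblast lists are lowest on control array 4.

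Other genes of the cell cycle gave the following counts. Of 77 further mitosis genes tested, 28 were lower and 1 higher (Cdc27, an APC/C subunit, by 0.66, named after its value was seen) in laser bone, and 24 lower and 0 higher in bur bone, with medians of -0.65 and -0.56. The largest changes were in Cdc25b, a phosphatase that activates Cdk1 (-2.10 and -2.12), Gtse1 (-2.01 and -2.02), the kinesin Kif18b (-1.71 and -1.65) and Hmmr, a spindle protein and hyaluronan receptor (-1.54 in laser; -0.93 in bur bone, not called). Of 27 genes of DNA replication 18 were lower in laser and 16 in bur bone, and 0 higher in both, with medians of -0.85 and -0.75. Fen1, the nuclease that processes Okazaki fragments, fell by 1.19 and by 1.16, the licensing factors Cdt1 by 1.18 and by 0.83 and Cdc6 by 1.18 and by 0.99, and the helicase subunit Mcm3 by 1.12 and by 1.02.

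Of 18 genes of the E2F, pocket protein and DREAM families 8 were lower in each comparison, with medians of -0.47 and -0.46. They were led by E2f2 (-2.17 and -2.27), E2f8 (-1.98 and -1.85), Tfdp2, a dimer partner of E2F (-1.92 and -1.88), and Rbl1, or p107 (-1.19 and -1.44). Among 8 cyclins and kinases of G1 the cyclins Ccne1 (-1.96 and -1.95) and Ccnd3 (-1.72 and -1.68) fell while Ccnd1 rose (0.78 and 0.76), and Cdk2 fell in bur bone (-0.66), with a similar difference in laser bone that was not called (-0.59) and no call between laser and bur. Of 7 inhibitors of cyclin-dependent kinases 1 passed: Cdkn1a, or p21, rose by 1.39 (adjusted p = 0.0148) and by 1.15 (adjusted p = 0.0187).

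Several members were measured by more than 1 probe: 16 of the 45 had 2 to 4 kept probes, 67 kept probes in all. Of these 67 probes 65 were below 0 in laser minus control and 63 in bur minus control, and 0 were called higher, with adjustment over the 29775 probes kept. In laser bone 6 members not called on their brightest probe had another probe called lower, namely Bub1b, Dlgap5, Mad2l1, Ndc80, Racgap1 and Ube2c. The 4 members Ckap2, Foxm1, Mki67 and Nek2 were called on the brightest probe while another probe was not. Ndc80 was the widest case, its 4 probes giving -1.23, -0.94, -0.60 and -0.11 in laser minus control. Counting a member as lower where any of its probes was, 19 members were lower in each comparison. The checkpoint genes Bub1b and Mad2l1 and the midzone gene Racgap1 would then count as lower. This any-probe rule gives genes with several probes more chances of a call. The share of all genes lower under it was not counted.

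In the authors' deposited tables, which cover probes of 44 members, 27 members had an adjusted p under 0.05 with a lower value in laser than in control bone and 22 in bur bone, 0 were higher, and the authors' median log2 changes were -0.61 and -0.56. Their table of laser against bur had 0. The share of all probes called lower in the authors' tables was not counted here. Their counts of members therefore have no background beside them. Same-numbered laser and control arrays deviated together in the check described under processing, though the number equals the row on the slide. With the number as a block 23 members were called in laser against control, the same 13 and 10 more (Ccnb2, Cdk1, Dlgap5, Kif11, Mad2l1, Ncapg, Ndc80, Nusap1, Top2a and Ube2c). Of all genes tested, 14.6% were called lower in that fit.

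**Figure D4:**
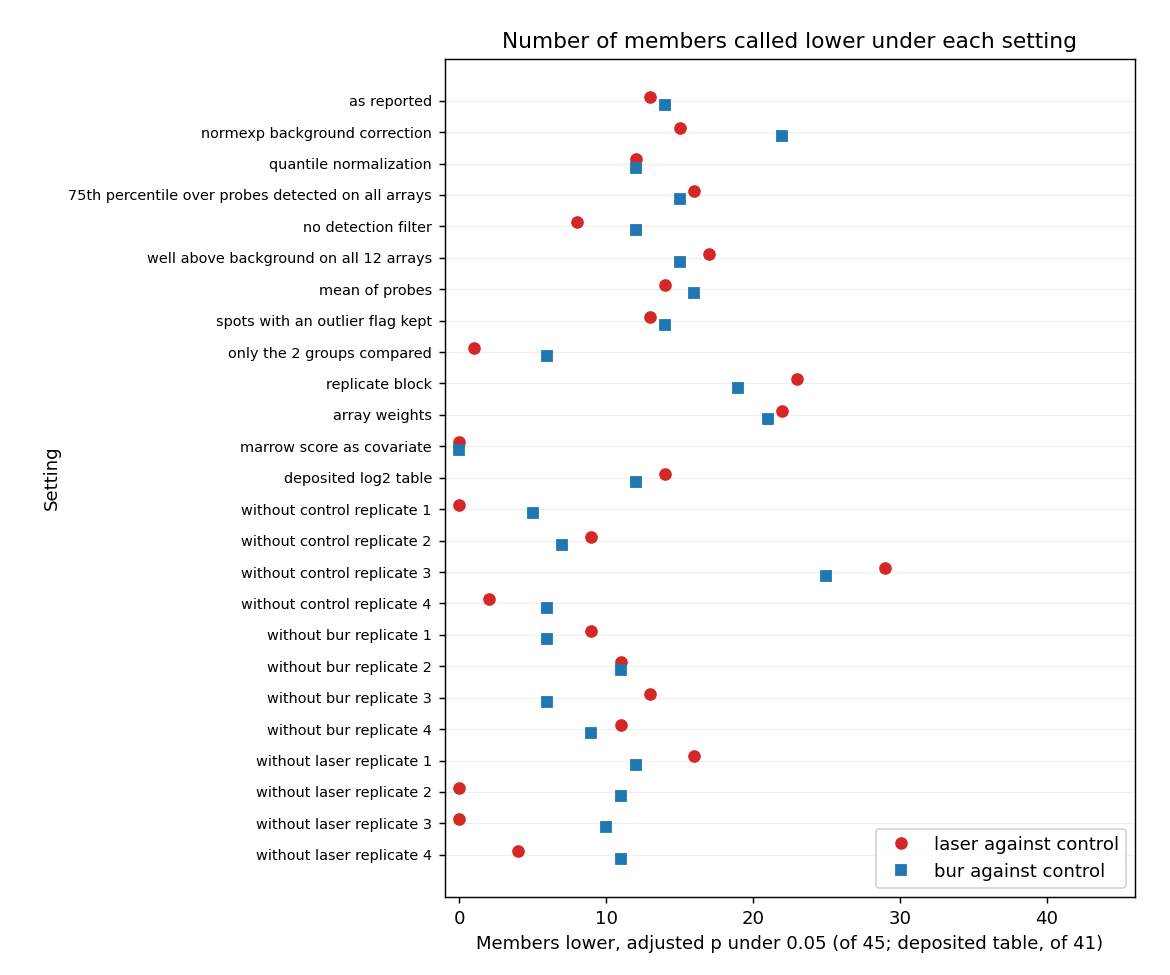
Each row is a way of processing the data or a left-out array; points give the number of members lower with an adjusted p under 0.05 in laser (circles) and bur (squares) against control. The counts reported here are 13 and 14, and over the rows they run from 0 to 29 for laser and from 0 to 25 for bur. The share of all genes called lower, not drawn, runs from 0% to 18.2% and from 0% to 27.7% over the same rows.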

How the data were processed

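Rat calvaria RNA was measured on 12 Agilent arrays of 1 colour (Cy3), 4 a group. The authors deposited spot intensity per array, made with Agilent Feature Extraction 11.0.1.1 per the file headers, background-subtracted but not normalized between arrays. A log2 table that its name calls quantile-normalized, and p-values with log2 changes for the 3 comparisons, were deposited too; the sources used here do not give the steps behind them.

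Of 62976 spots 58717 were not controls. Processed intensity was taken as log2 minus the array's 75th percentile, spots marked as outliers were left out, and spots of a probe were averaged. No spot was saturated, and 58.1% to 67.0% of probes were well above background per array. Of 45598 probes 29775 were well above background on at least 4 arrays, and the brightest stood for each of 22718 gene names. Differences were fitted with limma 3.58.1 in R 4.3.3 (lmFit, eBayes, all 12 arrays, a mean per group, two-sided) with Benjamini-Hochberg adjustment over all 22718 names and a threshold of 0.05; the code was tested on simulated data. Only 4 arrays a group limit the precision. Alternatives are given in the closing section.

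The members and gene lists were chosen with earlier results of these data known. Per role group, the 2 members with the largest laser minus control difference are given array by array, and per pathway list up to 4 genes past the threshold with the largest change; members with other patterns were added after their values were seen.

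Same-numbered arrays deviated together between bur and laser (correlations 0.25, 0.24, 0.16 and 0.34) and between control and laser (0.34, 0.18, 0.22 and 0.13), but not throughout between bur and control (0.28, -0.05, 0.28 and 0.08). Between arrays of unlike number the highest correlation was 0.143 for bur and laser, 0.125 for control and laser and 0.321 for bur and control. The replicate number was used as a block only in an alternative fit, which spanned all 3 groups. The fit behind the reported counts, SEs and adjusted p used no pairing. The replicate number equals the row on the slide, so that pairing and row cannot be told apart. Promoters are from the RefSeq tables of GRCr8, with motifs searched on both strands.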

Additional observations from a re-analysis of the deposited data

Results flagged for a closer look

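Among 138 sets of 4 arrays (the 45 members and their mean, each in 3 groups), 7 held an array that stood apart from the other 3 by Dixon's test at 95%; chance alone marks about 1 set in 20. Control array 4 was high for Kif2c (-2.84, others -4.15 to -4.04), Ckap2 (-0.81, others -1.56 to -1.50) and Ncapg (-1.53, others -2.83 to -2.62). Laser array 1 was high for Bub1b (-2.50, others -2.79 to -2.77) and for Espl1 (-0.67, others -1.62 to -1.51). Bur array 4 was high for Ncapg (-2.39, others -3.04 to -2.93), and laser array 4 was low for Cdc20 (-1.67, others -1.47 to -1.44). Values are log2 signal relative to the array's 75th percentile.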

How the results depend on the processing

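The count of members lower than control, 13 for laser and 14 for bur, became 8 (laser) without a detection filter, 1 and 6 with only the 2 groups compared in the fit, 23 (laser) and 19 (bur) with the replicate number as a block, 22 (laser) with array weights and 22 (bur) with normexp background correction, and 0 and 0 with the marrow score as covariate; the cause was not tested. The share of all genes called lower moved too, beside 13% (laser) and 16.2% (bur) in the reported fit. It was 5.65% (laser) without a detection filter, and 4.87% (laser) and 13% (bur) with only the 2 groups compared. With array weights it was 17.6% (laser) and with normexp 27.7% (bur). With the block it was 14.6% (laser) and 17.5% (bur). Over the fits that left out 1 array each the member counts ran from 0 to 29 and from 5 to 25. The marrow score also moved the median member difference to 0.16 and 0.26 and turned the sign of called members: in laser against control Nuf2 to 0.12, Tpx2 to 0.14, Pttg1 to 0.038, Espl1 to 0.16 and Mki67 to 0.21, and in bur against control Ccna2 to 0.079, Aurka to 0.056, Tpx2 to 0.12, Nusap1 to 0.020, Espl1 to 0.15, Top2a to 0.090 and Mki67 to 0.27, with adjusted p from limma of 0.66 to 0.988. Quantile normalization, a 75th percentile over probes detected everywhere, detection on all 12 arrays, the mean of probes, spots marked as outliers kept and the deposited log2 table (41 members) kept the counts within 1.5 times. Normexp shifted the median of all genes to -0.24 in bur minus control, with the members at -0.58. No setting called a member higher than control, and laser against bur gave 0 members in each. In bur against control the block added Ccnb2, Cdk1, Dlgap5, Mad2l1 and Nuf2. It removed no call in either comparison with control.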

Other observations

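The skeletal muscle markers, 7 genes that stand for tissue next to the calvaria, were high on the arrays numbered 1 in every group. Relative to the mean over the 12 arrays their mean log2 level was 2.71 on control array 1, 2.04 on bur array 1 and 0.77 on laser array 1, and between -0.82 and -0.35 on the other 9 arrays. Mitotic members did not share that pattern: on the same 3 arrays their mean was 0.48, -0.27 and -0.01.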
